A study of Homo sapiens with 4 samples.

Results

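The CCN family comprises 6 secreted matricellular proteins, CCN1 to CCN6, which were known earlier as CYR61, CTGF, NOV, WISP1, WISP2 and WISP3. Probes of these genes were found through the RefSeq accession that the array gives for each probe, which gave 6 probes for 6 genes. The array held 34127 probes, of which 25761 could be named in this way, so a probe without such an accession would be missed. There were 19733 named genes in all, of which 18755 had a usable spot on every array. Each CCN gene had 1 such probe and each of these probes had 1 spot, none of which was marked as an outlier. The family was selected on array values already seen, in which CCN5 stood among the largest differences, so its ratios are given as a description and no test was made on them. Hs746T is a gastric carcinoma cell line that carries an exon skipping mutation of MET, the receptor tyrosine kinase for hepatocyte growth factor, together with amplification of the gene. The cells were grown with serum and given DMSO, the vehicle, or PHA665752, a small molecule inhibitor of MET kinase, or were transfected with scrambled (sc) siRNA or a single MET siRNA and harvested 48 h later. How much PHA665752 the arrayed cells received, and for how long, was not given in the sources used here. Each of the 4 conditions had 1 array, all from 1 cell line and on 1 slide, so that differences between cultures and treatments cannot be told apart, and precision is limited by this number of arrays.

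CCN proteins are built from modules that resemble an insulin-like growth factor binding domain, a von Willebrand factor C domain, a thrombospondin repeat and a cystine knot. They act in the extracellular matrix, where they bind integrins and heparan sulphate proteoglycans, and they influence adhesion, migration and fibrosis. CCN1 and CCN2 are widely used as readouts of the transcriptional coactivators YAP and TAZ, which bind DNA through TEAD factors. CCN1 is also an immediate early gene of the serum response, and CCN2 is also induced by TGF-beta. CCN5 lacks the cystine knot that the other members carry, and it is known as an oestrogen-induced gene and as a growth-arrest gene of smooth muscle.

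The values below are processed signals, the linear intensities of the deposited scanner output, and log2 ratios between arrays after the 75th percentile of each array was subtracted. A probe was counted as well above background where the scanner software marked it so. Spot noise is the median SD between spots of the 50 replicated probes nearest in signal on each array, combined over the arrays of a ratio. It does not include differences between cultures. The scanner software gives a separate error for each signal, which was about 10% of the signal for CCN1, CCN2 and CCN3 on all 4 arrays. MET itself, the targeted gene, had log2 ratios of -0.93 for PHA665752 over DMSO, -1.33 for MET siRNA over sc siRNA and 0.032 for sc siRNA over DMSO. The last of these pairs shares an array with each of the other pairs. The share of probes well above background lay between 61.1% on the MET siRNA array and 68.2% on the sc siRNA array, and 5.58% of spots were marked as outliers on the MET siRNA array against 1.69% to 2.21% on the others.

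Of the CCN genes, CCN5, CCN1, CCN2 and CCN3 were well above background on all 4 arrays, and CCN4 and CCN6 on none. As these are bulk RNA values, more cells with a transcript and more of it per cell cannot be told apart. CCN5 was far higher with PHA665752 than with DMSO and higher, by less, with MET siRNA than with sc siRNA. CCN1 was about 2-fold higher with PHA665752, CCN3 was higher by less than 2-fold, and CCN2 was lower by less than 2-fold. With PHA665752, 2 of the 4 measured genes, CCN5 and CCN1, were higher by more than 2-fold and 0 were lower. Among all 14322 genes with a ratio in this pair, 13.1% were higher and 8.04% lower past 2-fold, 21.1% in all. With MET siRNA, 1 of the 4, CCN5, was higher past 2-fold and 0 were lower, where 2.04% of 13647 genes were higher and 0.696% lower, 2.73% in all. Between the control arrays 0 of the 4 passed 2-fold, where 2.89% of 14274 genes were higher with sc siRNA and 1.16% lower, 4.05% in all.

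**Figure D1:**
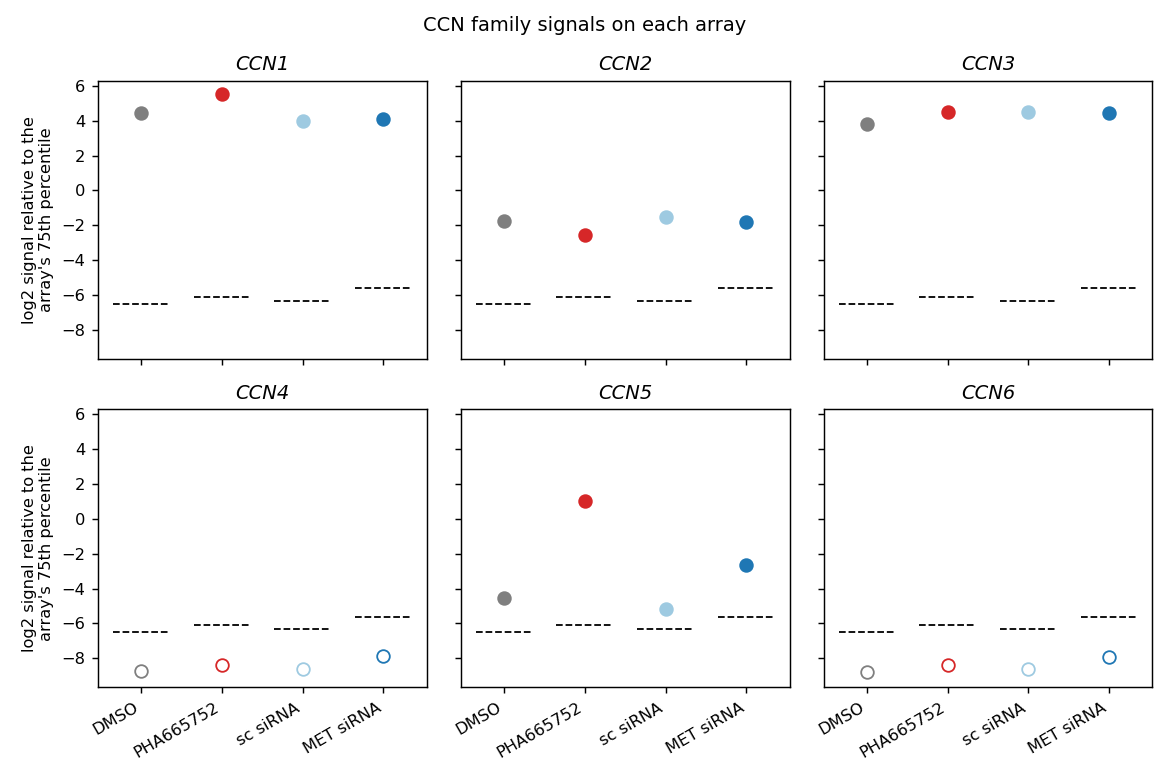
Signal of the 6 CCN probes on the 4 arrays, as log2 of the processed signal relative to the 75th percentile of the array (vertical axis), with 1 panel per gene and 1 point per array. Filled points were well above background, open points were not, and dashed lines give the lowest signal well above background on that array; CCN4 and CCN6 lie below these lines on all 4 arrays, and CCN5 runs from -5.19 with sc siRNA to 1.02 with PHA665752. Heights are not comparable between panels, since each is another probe.

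The CCN5 probe (A_23_P102611, NM_003881) gave processed signals of 42.8 for DMSO against 1732 for PHA665752, and of 22.7 for sc siRNA against 135 for MET siRNA. The treated array was the higher of each pair, and the signal with MET siRNA was far below that with PHA665752. On the scaled log2 scale the levels were -4.53, 1.02, -5.19 and -2.67 in the same order. On these arrays a signal passed as well above background from 10.8, 12.3, 10.2 and 17.4 upward, so the control signals of CCN5 lay in the dim part of the array, yet above that limit. The raw median intensity of the spot was 73 with DMSO and 61 with sc siRNA, against local backgrounds of 28.5 and 34. It was 1609 with PHA665752 and 165 with MET siRNA, against local backgrounds of 33 and 30. The error that the scanner software gave for the CCN5 signal was largest on the sc siRNA array, at 14.3% of the signal, and was 10.0% on the PHA665752 array.

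For PHA665752 over DMSO the log2 ratio of CCN5 was 5.55, or 47.0-fold, with a spot noise of 0.13. It was the largest of the 14322 gene ratios of this pair, and 0.0349% of genes lay at least as far from 0 in either direction. For MET siRNA over sc siRNA the log2 ratio was 2.52, or 5.74-fold, with a spot noise of 0.19. It took place 33 from the top of 13647 genes, of which 0.286% lay at least as far from 0. The control arrays differed by a CCN5 log2 ratio of -0.66, with a spot noise of 0.22 and with sc siRNA the lower. The treatments themselves were not compared by a test, since each has 1 array. The size of the CCN5 difference depended on the background correction. With normexp, a correction that lifts low signals, the log2 ratio was 4.21 in the inhibitor pair, 1.16 in the siRNA pair and -0.076 between the controls. Under no alternative did CCN5 fall below 2-fold in either treatment.

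Most markers of mesenchymal cells and fibroblasts that gave a ratio were higher with PHA665752, and fewer passed 2-fold with MET siRNA. Of 7 such markers 6 had a usable spot on every array, which VIM did not, and 5 were well above background on every array, while LUM, a keratan sulphate proteoglycan of connective tissue, was on none. Their signals, before scaling, summed to 6202 with DMSO and 15438 with PHA665752, and to 5441 with sc siRNA and 7863 with MET siRNA. With PHA665752, 4 of the 5 were higher past 2-fold and 0 were lower, with a median log2 ratio of 2.0. Over all genes 13.1% were higher and 8.04% lower. With MET siRNA 2 were higher past 2-fold, against 2.04% of all genes, with a median of 0.79. Between controls it was 0, with a median of 0.046. COL1A1, the main chain of type I collagen, had log2 ratios of 3.32 and 1.54 for the inhibitor and the siRNA. PDGFRB, a receptor for platelet-derived growth factor on mesenchymal cells, had 2.11 and 1.04, the latter just past 2-fold. Marker counts were made under the main processing only. COL1A2, DCN and CDH2 completed the list, and CDH2 had log2 ratios of 0.26 and 0.10. The part of these markers in the CCN5 result was not tested.

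Epithelial markers were well above background in 6 of 6 genes on the DMSO, PHA665752 and sc siRNA arrays and in 5 on the MET siRNA array, where CDH1, the adhesion protein E-cadherin, was not. CDH1 signals were low throughout, at 33.0 with DMSO and 30.2 with PHA665752, and at 13.1 with sc siRNA and 10.4 with MET siRNA. The summed epithelial signal, before scaling, was 131987, 80935, 106787 and 93980 in that order, but with PHA665752 0 of 6 ratios passed 2-fold either way, the median log2 ratio was 0.058, and KRT18, a simple-epithelium keratin, and CLDN4, a tight-junction claudin, had -0.55 and -0.56 while EPCAM, an epithelial adhesion molecule, had 0.54. With MET siRNA 0 of 5 passed, with a median of -0.23. Of 6 gastric markers 4 had a usable spot on every array and 3 were well above background on each, with sums between 243 and 280, and GKN1, a protein of the gastric surface mucosa, was above it on none. The gastric markers above it were MUC6, a gland mucin, TFF2, a trefoil peptide, and GATA4, a transcription factor. With PHA665752 GATA4 was higher past 2-fold, with a log2 ratio of 1.23, the others were not, and the median was 0.21, while 0 of 3 passed with MET siRNA.

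The CCN1 probe (A_23_P46429, NM_001554) gave processed signals of 21994 for DMSO against 39089 for PHA665752, and of 13227 for sc siRNA against 14913 for MET siRNA. The PHA665752 array was the highest and both siRNA arrays lay below DMSO. The log2 ratio for PHA665752 over DMSO was 1.04, or 2.06-fold, with a spot noise of 0.066. Genes at least as far from 0 made up 19.8% of those with a ratio, and CCN1 took place 1768 from the top. Its distance from the 2-fold limit was smaller than its spot noise, and 4 of the alternative ways of processing put it below that limit. For MET siRNA over sc siRNA the log2 ratio was 0.13, with a spot noise of 0.058, and it was -0.17 when arrays were scaled to the median of their probes well above background, so that its sign depended on the scaling. Between the controls the log2 ratio was -0.48, with a spot noise of 0.063 and sc siRNA the lower array. The control ratio was thus farther from 0 than the MET siRNA ratio. The DMSO array enters both the inhibitor ratio and the control ratio of CCN1.

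The CCN2 probe (A_23_P19663, NM_001901) gave processed signals of 294 for DMSO against 145 for PHA665752, and of 287 for sc siRNA against 247 for MET siRNA. PHA665752 gave the lowest of the 4 signals. On the scaled log2 scale MET siRNA, at -1.80, and DMSO, at -1.75, differed by less than the SD between spots of either array. The log2 ratio was -0.81 for PHA665752 over DMSO, a signal 1.75-fold higher in the control, with a spot noise of 0.091. Of the genes of this pair 28.6% lay at least as far from 0, and 1607 was the place of CCN2 counted from the largest fall. For MET siRNA over sc siRNA the log2 ratio was -0.26, with a spot noise of 0.084, and between the controls it was 0.22, with a spot noise of 0.085. Scaled to the 50th percentile, which moves every inhibitor ratio by -0.25, CCN2 passed 2-fold with a log2 ratio of -1.05. CCN1 and CCN2, which share YAP and TEAD as known regulators, lay on opposite sides of 0 with PHA665752.

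The promoter of CCN2 is shown because TEAD factors, through which YAP and TAZ reach DNA, bind the letters GGAATG. RefSeq places the 250 bases before its start at chr6:131951373-131951622 of GRCh38.p14, on the minus strand, and the sequence reads 5′ to 3′ with each GGAATG in capitals.
CCN2 promoter: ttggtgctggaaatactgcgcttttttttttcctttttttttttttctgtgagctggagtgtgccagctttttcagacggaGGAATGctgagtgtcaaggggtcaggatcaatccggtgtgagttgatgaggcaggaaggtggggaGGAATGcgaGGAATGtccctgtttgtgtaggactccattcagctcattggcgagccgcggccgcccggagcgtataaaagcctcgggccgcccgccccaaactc
The matches begin 169, 104 and 95 bases before the start, all on the strand of the gene. GGAATG, read on either strand, is found in 11.9% of the 35116 RefSeq promoter windows of this length, and 0.0826% hold 3 or more. Its neighbours in the window include 1 CAGAC, a SMAD motif found in 38.0% of windows, and 0 TGANTCA, an AP-1 motif found in 6.57%. Of the 17 windows given for the other YAP and TEAD targets listed, 7 held GGAATG. The window of CCN6 held 1. A match describes the letters of the window, and binding was not measured.

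The CCN3 probe (A_23_P82929, NM_002514) gave processed signals of 14174 for DMSO against 19702 for PHA665752, and of 19225 for sc siRNA against 19010.5 for MET siRNA. DMSO was the lowest array, and the others lay close together, between 4.47 and 4.53 on the scaled log2 scale against 3.84 with DMSO. The log2 ratio for PHA665752 over DMSO was 0.69, with a spot noise of 0.064, and 35.02% of genes lay at least as far from 0. For MET siRNA over sc siRNA it was -0.063, with a spot noise of 0.063, no larger than the noise between spots, but it was -0.36 when arrays were scaled to the median of their probes well above background. For sc siRNA over DMSO it was 0.69, or 1.62-fold, with a spot noise of 0.064, and 8.28% of genes lay at least as far from 0. The same DMSO array is the denominator of both ratios of 0.69. CCN3, a growth-inhibitory member first described in nephroblastoma, thus differed between the controls as much as between PHA665752 and its vehicle.

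CCN4, a Wnt-induced member, and CCN6, which is mutated in a progressive arthropathy of childhood, gave no ratio. The CCN4 probe (A_23_P169097, NM_080838) had processed signals of 2.29 and 2.54 in the inhibitor pair, control first, and of 2.11 and 3.59 in the siRNA pair. The CCN6 probe (A_23_P81676, NM_198239) had 2.23, 2.50, 2.07 and 3.52 in that order. None of these reached the lowest signal well above background on its array, and the error given by the scanner software was over 99% of each signal. Differences among these values have no order, and both genes were not detectable on these arrays by these probes.

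**Figure D2:**
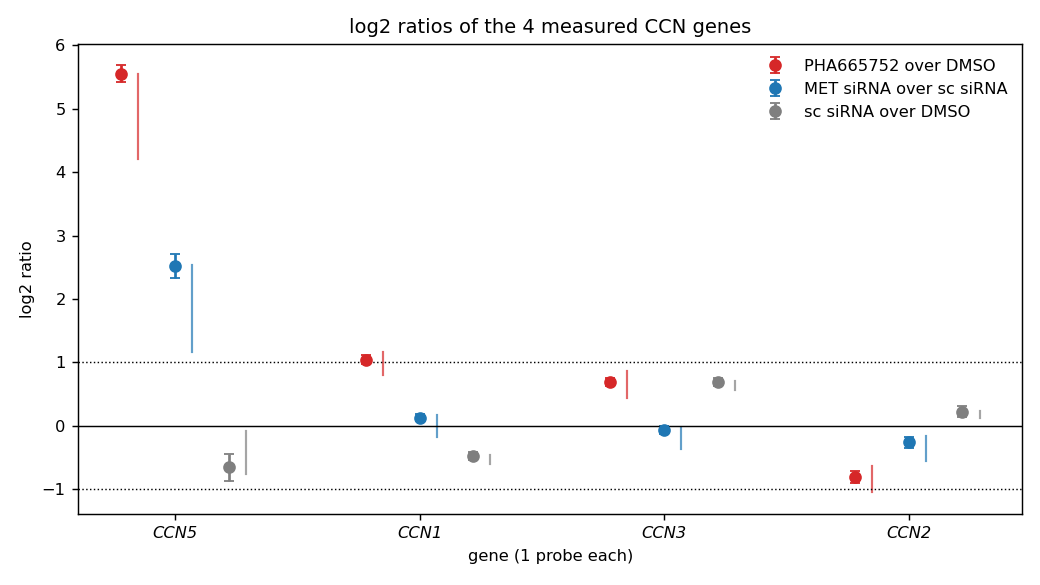
log2 ratios (vertical axis) of the 4 measured CCN genes in the 3 pairs of arrays, with 1 point per gene and pair and bars for ± the spot noise of the ratio. The thin line beside each point spans the values over the other ways of processing, and dotted lines mark 2-fold; CCN5 lies past 2-fold in both treatment pairs, CCN1 sits at the line with PHA665752, and CCN3 has 0.69 in both pairs that hold the DMSO array.

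The profiles of the members over the arrays lay apart. Likeness was measured as the distance between the scaled log2 signals of 2 genes over the 4 arrays, each gene centred on its own mean, so that 0 means the same profile. The distance was 1.08 between CCN2 and CCN3, 1.29 between CCN1 and CCN3, and 1.96 between CCN1 and CCN2. CCN5 stood 3.82 from CCN1, 4.62 from CCN3 and 5.59 from CCN2. Among the 13073 other genes well above background on all arrays, those nearest to CCN5 were CHIA at 1.35, PPL at 1.66 and PSG3 at 1.80. CHIA had log2 ratios of 4.35 and 1.05 for the inhibitor and the siRNA, PPL had 3.45 and 1.48, and PSG3 had 3.59 and 1.02. Other members had far closer neighbours, namely MYOM2, METTL9 and UBE4B for CCN1, from 0.081 to 0.097, SIX2, ST3GAL5 and IDH3A for CCN2, from 0.016 to 0.044, and ZNF600, HLA-B and B2M for CCN3, from 0.052 to 0.068. The distance keeps the size of a change, so a gene with a ratio as large as that of CCN5 lies far from most others. With only 4 arrays, such distances describe the arrays and were not tested.

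**Figure D3:**
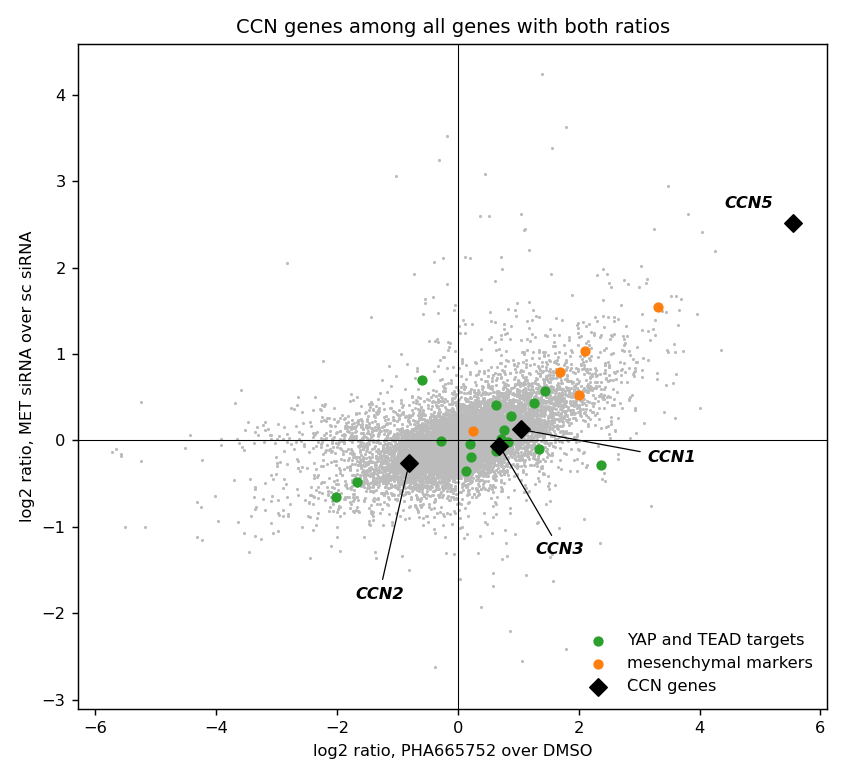
log2 ratio for PHA665752 over DMSO (horizontal axis) against that for MET siRNA over sc siRNA (vertical axis), with 1 point per gene that has both ratios. Grey points are all genes, diamonds the CCN genes, green points the YAP and TEAD targets and orange points the mesenchymal and fibroblast markers; CCN5 is farthest to the right at 5.55 and 2.52, while CCN1, CCN2 and CCN3 lie within the main cloud.

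Genes that act with the CCN family were followed in 9 lists, each described by its counts past 2-fold and its median log2 ratio. The median over all genes was 0.075 in the inhibitor pair, -0.017 in the siRNA pair and -0.010 between the controls. Of all genes 13.1% were higher and 8.04% lower past 2-fold in the inhibitor pair. The shares were 2.04% and 0.696% in the siRNA pair, and 2.89% and 1.16% between the controls. Counts in the lists stand beside these shares and were not tested. CCN receptors, mostly integrins, gave ratios for 13 of 13 genes with PHA665752, of which 1 was higher and 2 were lower past 2-fold, with a median of 0.51. ITGA2, the collagen-binding integrin alpha 2, had signals of 208 with DMSO and 30.1 with PHA665752, and of 233 with sc siRNA and 120 with MET siRNA. Its log2 ratios were -2.58 and -1.0 for the treatments, the latter just within 2-fold. ITGB3, the beta 3 partner of integrin alpha V and a receptor for CCN1 and CCN2, had -1.73 and -0.65. LRP1, an endocytic receptor that binds CCN2, had 1.17 and 0.054, and it lay within 2-fold at the 50th percentile, with normexp and as the median of its probes. MET siRNA gave 12 receptor ratios with 0 past 2-fold, and with 1 lower under the other scalings, the 50th percentile, the median of probes well above background and quantile normalization.

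YAP and TEAD targets other than CCN1 and CCN2 gave ratios for 17 of 20 genes, of which 4 were higher and 2 lower past 2-fold with PHA665752 (13.1% and 8.04% over all genes), with a median of 0.63. With normexp 2 were higher, where 6.73% of all genes were. CCN1 lay with the former and CCN2 with the latter in sign. F3, tissue factor, had a log2 ratio of -2.03, and NT5E, the ectonucleotidase CD73, had -1.66. TGFB2, a TGF-beta ligand, had 2.36. RBMS3 at 1.34 and GADD45A at 1.26 were also higher and were named after their values were seen. With MET siRNA 0 of 17 passed 2-fold, with a median of -0.024. Of 16 components of the Hippo pathway itself, which restrains YAP and TAZ, 0 were higher and 2 lower past 2-fold with PHA665752 (13.1% and 8.04% over all genes), with a median of -0.14. WWTR1, which encodes TAZ, had signals of 5881 with DMSO and 1102 with PHA665752, and of 5596 with sc siRNA and 3578 with MET siRNA. The treated array was the lower of each pair, and the log2 ratios of WWTR1 were -2.20 and -0.69, the latter within 2-fold. WWC1, the scaffold KIBRA, had -1.05 and -0.40. YAP1, named after its value was seen, had -0.38 and -0.36.

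TGF-beta targets gave 11 ratios of 12 genes with PHA665752, 5 higher and 0 lower past 2-fold, with a median of 0.97. At the 50th percentile and with normexp 3 were higher, where 9.07% and 6.73% of all genes were, with medians of 0.72 and 0.65. They included COL1A1 at 3.32 and FN1, fibronectin, at 1.96, and, named after their values were seen, PMEPA1 at 1.53, JUNB at 1.16 and TAGLN at 1.03. With MET siRNA 1 of 10, COL1A1, was higher past 2-fold. Serum-induced immediate early genes, the class to which CCN1 belongs, gave 11 ratios of 12 genes, 7 higher and 0 lower past 2-fold with PHA665752, with a median of 1.16. At the 50th percentile 4 were higher, where 9.07% of all genes were. ATF3, a stress-induced transcription factor, had signals of 1614 with DMSO and 16994 with PHA665752, and of 3008 with sc siRNA and 9882 with MET siRNA. Its log2 ratios were 3.61 and 1.67, and it was the 1 gene of the list past 2-fold with MET siRNA. EGR1, a zinc finger factor of the serum response, had 2.95 and 0.085. This list also differed between the controls, where 2 of 11 were higher and 2 lower past 2-fold with sc siRNA. JUNB is in both of these lists.

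Other matricellular proteins gave 12 ratios of 16 genes with PHA665752, 6 higher and 2 lower past 2-fold, with a median of 0.89. At the 50th percentile 2 were higher and 2 lower, under quantile normalization 4 and 1, and with normexp 4 and 2, and without the filter on dim probes the median was 0.38. THBS3, a thrombospondin, had signals of 273 with DMSO and 1445 with PHA665752, and of 247 with sc siRNA and 418 with MET siRNA, and a log2 ratio of 2.62 with the inhibitor. SPARC, a collagen-binding glycoprotein, had 1.33. SPP1, the cytokine osteopontin, had -1.99, and TNC, tenascin C, had -1.03. With MET siRNA 0 of 10 passed 2-fold. Insulin-like growth factor binding proteins, whose domain the CCN proteins share, gave 5 ratios of 7 genes, 1 of them past 2-fold with PHA665752, IGFBP6 at 1.02. At the 50th percentile, under the median of probes well above background, with normexp and with plain background subtraction 0 passed.

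Pathways known to act on CCN5 and CCN4 came last. Oestrogen-responsive genes gave 9 ratios of 10 genes with PHA665752, 2 higher and 1 lower past 2-fold, with a median of 0.17 that turned to -0.071 at the 50th percentile. ESR1, the oestrogen receptor, was well above background on the PHA665752 array and not on the DMSO array. Its log2 ratio of 1.95 was taken against the dim DMSO signal of 12.5, so it is not a strict lower limit. GREB1, an oestrogen-induced cofactor, had 1.34, and MYBL1 had -1.0. The DMSO signal of GREB1, 40.2, was its lowest, and its log2 ratios were 0.89 for sc siRNA over DMSO and -0.35 for MET siRNA over sc siRNA. With normexp, where 6.73% of all genes were higher past 2-fold, 0 of the list were, so ESR1 did not pass it there. At the 50th percentile, under quantile normalization and with plain background subtraction 2 were higher. When both arrays had to be well above background, or with the median of the probes of each gene, 1 was higher, and under quantile normalization 0 were lower. With MET siRNA 1 of 8 was past 2-fold, PDZK1, a scaffold protein named after its value was seen, with a bound of 1.59, and 0 with normexp, with plain background subtraction or when both arrays had to be well above background. Wnt and beta-catenin targets gave 6 ratios of 12 genes, of which 1, DKK1, a secreted Wnt inhibitor, passed 2-fold with PHA665752 at 1.09, and 0 with MET siRNA. At the 50th percentile and under the median of probes well above background 0 passed with PHA665752. AXIN2, the feedback gene of the pathway, named after its value was seen, had -0.19 and -0.17.

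**Figure D4:**
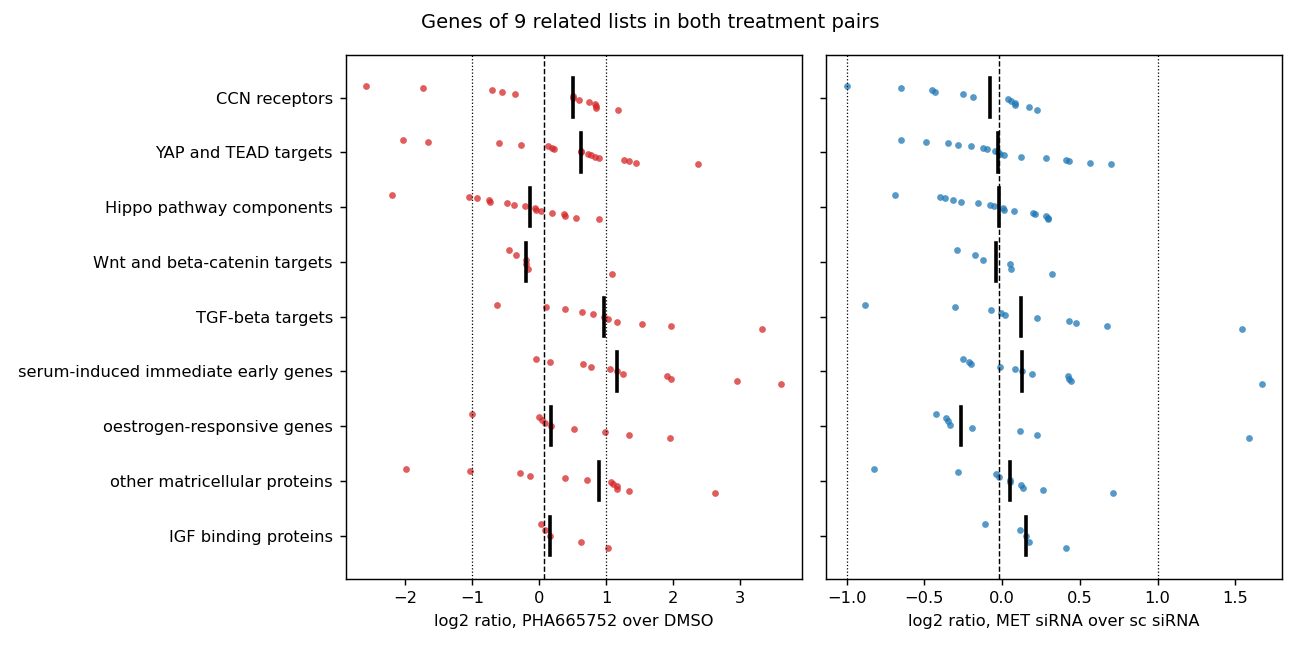
log2 ratios (horizontal axes) of the genes of 9 related lists (rows), with 1 point per gene, for PHA665752 over DMSO (left) and MET siRNA over sc siRNA (right). Thick bars are list medians, dashed lines the median of all genes and dotted lines 2-fold; the left panel spans -2.58 to 3.61, its widest medians being those of the immediate early genes at 1.16 and the TGF-beta targets at 0.97, while on the right the medians lie between -0.27 and 0.16.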

How the data were processed

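Total RNA of Hs746T cells was labelled with Cy3 and hybridised to Agilent human 44K V2 arrays, 1 per condition. The deposited files are the output of the Feature Extraction scanner software (11.5.1.1 per the file headers), and the intensity they give for each spot is corrected for background and not normalized between arrays. Control spots and outlier-marked spots were left out, log2 intensities were averaged over the spots of each probe, and each array was scaled by subtracting its 75th percentile. A probe was taken as well above background if this mark was on 50% or more of its spots. With 1 dim array in a pair the ratio, called a bound, was taken against the higher of the dim signal and the lowest signal well above background. With 2 dim arrays there was none. Probes were named through RefSeq accessions of GRCh38.p14, whose build is not that of the array and gave no coordinates (25761 probes, 75.5%), and the brightest probe with a usable spot on every array stood for its gene (18755 of 19733 genes). Spot noise came from the 999 probes spotted 10 times, with at least 5 usable spots. No p-value could be had with 1 array per condition.

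Members and lists were chosen with earlier results of these data known. The text names all CCN genes, MET, the 3 genes nearest in profile to each measured CCN gene, and, from each list, genes past 2-fold in both treatments in one direction and the 2 largest rises and falls past 2-fold with PHA665752; other names are marked, and 1 gene that this rule names is not reported here. The alternatives were the 50th percentile, the median of probes well above background, quantile normalization, normexp (offset 50, on median signals), plain background subtraction, no filter on dim probes, a stricter filter that needs both arrays well above background, marked spots kept, the series matrix, and, for genes with several probes, their median. The ratio rules were run on simulated data in which only bright probes changed, by an amount well past 2-fold. Changes of dim probes and bounds were not tested in this way. Software was limma 3.58.1 under R 4.3.3, and Python 3.11.15 with pandas 2.3.3, numpy 2.4.6 and matplotlib 3.10.9.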

Additional observations from a re-analysis of the deposited data

How the results depend on the processing

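The count of CCN genes past 2-fold with PHA665752 was 1 in place of 2 under the median of probes well above background, normexp and plain background subtraction, where the log2 ratio of CCN1 was 0.95, 0.94 and 0.97. At the 50th percentile the count was 2, CCN5 higher and CCN2 lower (-1.05), with CCN1 at 0.80; this scaling moved the median of all genes by -0.25, and 9.07% of genes were higher and 12.3% lower past 2-fold, against 13.1% and 8.04%. The counts for MET siRNA (1) and for the controls (0) held under all alternatives. The median of probes well above background moved all genes of the siRNA pair by -0.30, with 1.18% higher and 1.75% lower past 2-fold against 2.04% and 0.696%. CCN1 with MET siRNA was the only CCN ratio whose sign turned. Over all alternatives the log2 ratio of CCN5 ran from 4.21 to 5.55 in the inhibitor pair and from 1.16 to 2.54 in the siRNA pair. In the inhibitor pair CCN1 lay between 0.80 and 1.16, CCN2 between -1.05 and -0.64 and CCN3 between 0.44 and 0.86. In the siRNA pair CCN2 lay between -0.56 and -0.17 and CCN3 between -0.36 and -0.038, the lowest of each under the median of probes well above background. List medians with PHA665752 kept their sign, other than those of the oestrogen-responsive genes and insulin-like growth factor binding proteins at the 50th percentile and of the Wnt targets without the filter on dim probes. With MET siRNA the medians of all lists other than the YAP and TEAD targets and the Hippo components turned sign under at least 1 alternative. Under the median of probes well above background 1 TGF-beta target and 1 other matricellular gene were lower past 2-fold with MET siRNA, against 0. No paired analysis was possible because each condition has 1 array, and for the same reason no array could be left out. Each CCN gene rests on 1 spot per array, and signals near the background limit the ratios of CCN5.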
